A study of Mus musculus with 6 samples.

Results

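Collagen genes were examined in primary cardiomyocytes (CMs) of newborn mice treated with α-ketoglutarate (αKG). All protein-coding genes of the deposited table whose symbol has the form of a collagen α-chain gene, Col, a type number, the letter a and a chain number, were taken as members. The rule found 38 collagen genes among 20066 listed genes, of which 14257 were protein coding. By the type number, 10 genes were grouped as fibrillar (types I, II, III, V, XI and XXVII), 8 as basement membrane (types IV, XV and XVIII) and 20 as other collagens. Both groups consisted of C57BL/6 CMs isolated at postnatal day 0 to 1 and cultured on fibronectin-coated plates. One group of 3 libraries received cell-permeable αKG (100 µM by the labels), and the control group of 3 received DMSO, both for 96 h. The CMs came from dissociated neonatal hearts, and no purification beyond standard dissociation is described. Total RNA was sequenced, and read counts per gene had been normalized between libraries. The labels do not say whether the 3 libraries of a group came from separate isolations. The imaging methods of the study state that each neonatal CM sample stands for 1 isolation from pooled hearts. The sequencing methods do not restate this, so p-values measure only the spread between these libraries.

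Collagens are trimers of α-chains that wind into a triple helix rich in glycine and proline. Fibrillar collagens, mainly types I and III in the heart, with types V and XI as regulators of fibril diameter, form the tension-bearing fibres of the interstitium. Type IV collagen forms the network of the basement membrane that surrounds each CM and underlies the endothelium, and types XV and XVIII lie at its border. FACIT collagens, which are fibril-associated collagens with interrupted triple helices, decorate the surface of fibrils, and type VI collagen builds beaded filaments between fibrils and basement membrane. In the heart, cardiac fibroblasts produce most of the fibrillar collagen, whereas CMs, endothelial cells and mural cells contribute to the basement membrane. Prolyl and lysyl hydroxylases, which modify nascent collagen chains in the endoplasmic reticulum, use αKG as a co-substrate.

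The libraries held an estimated 3725328 to 4428847 reads in genes, read from the spacing of the low values. αKG replicate 3 stood apart from its group: across genes, its log2 values correlated at 0.977 to 0.980 with the DMSO libraries and at 0.962 and 0.963 with αKG replicates 1 and 2, which correlated at 0.978 with each other. The comparisons of collagen genes are therefore given with all 6 libraries and without αKG replicate 3, as are the counts of called genes in lists. For other values the 3 αKG libraries are given singly. As αKG replicate 3 was picked by its values in these same data, p-values without it hold only under that choice. The fit without it called 37.2% of all genes, against 3.78% with all 6 libraries. The cell type given by the labels matched its markers, as all 12 CM markers searched for were listed, with a summed normalized count between 78062 and 116126 per library. Fibroblast, endothelial, mural and epicardial markers were also detected, but the mural markers *Rgs5*, *Kcnj8* and *Myh11* had at most 13 normalized counts in any library. The RNA was that of whole cultures, so fewer or more cells of a type and less or more RNA per cell cannot be told apart.

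At the level of the family, collagen transcripts were higher in αKG replicates 1 and 2 than in any DMSO library, and nearly at the DMSO level in αKG replicate 3. Collagen genes together held 0.348%, 0.340% and 0.329% of all normalized counts in the DMSO libraries. They held 0.577%, 0.554% and 0.351% in αKG replicates 1, 2 and 3. The groups did not overlap, but αKG replicate 3 lay only just above the highest control. Per kilobase of exon, which allows genes of different length to be added, the summed level was 1841 ± 50.4 normalized counts in DMSO (SD, n = 3) and 3048, 2920 and 1903 in αKG replicates 1 to 3. Fibrillar collagens made up most of this difference in αKG replicates 1 and 2. Their summed level per kilobase was 463, 458 and 438 in the DMSO libraries against 1142, 1096 and 474 in the αKG libraries, or 2.52, 2.42 and 1.05 times the DMSO mean. Basement membrane collagens reached 1.24, 1.20 and 1.02 times the DMSO mean, and the other collagens 1.87, 1.77 and 1.06 times. The composition differed too, as fibrillar genes formed 24.6% to 24.7% of the summed collagen level per kilobase in DMSO and 37.5%, 37.5% and 24.9% in αKG replicates 1 to 3. Basement membrane genes formed 59.2% to 60.3% in DMSO and 44.9%, 45.1% and 59.1% in αKG.

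**Figure D1:**
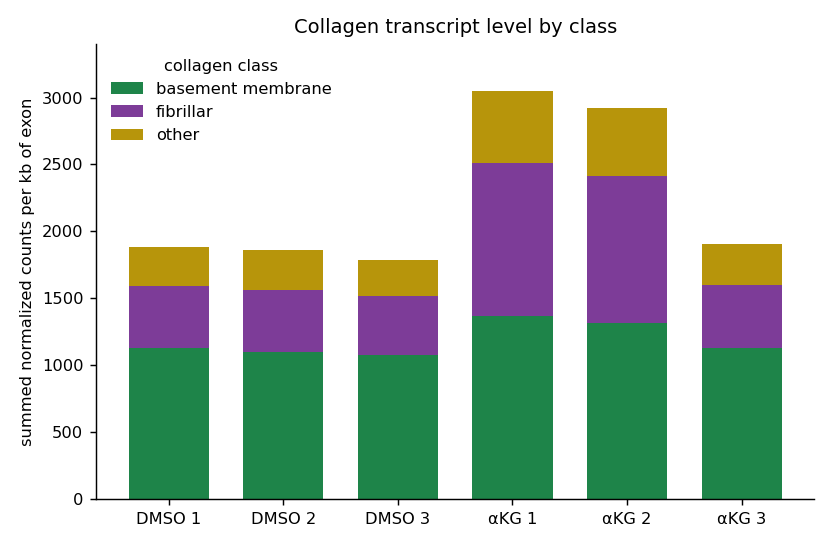
Summed normalized counts per kilobase of exon (vertical axis) of the basement membrane, fibrillar and other collagen genes, stacked, in each of the 6 libraries. αKG replicates 1 and 2 reach 3048 and 2920, above the DMSO mean of 1841, and αKG replicate 3 reaches 1903.

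Which collagen genes differed between the groups was asked with limma on log2(normalized count + 1), with Benjamini-Hochberg adjustment over all 20066 genes and a threshold of 0.05. With all 6 libraries, 4 of 38 collagen genes were called higher in αKG, where 2.83% of all genes were called higher. By the same test 0 were called lower, where 0.952% of all genes were called lower. The called genes were *Col12a1*, *Col27a1*, *Col6a3* and *Col4a4*. At an unadjusted p under 0.05, 22 collagen genes were higher and 2 lower, against 15.7% and 12.4% of all genes. When αKG replicate 3 was left out, 24 collagen genes were called higher and 2 lower by the adjusted p, against 19.3% and 17.9% of all genes. Those 24 comprised 8 of 10 fibrillar, 7 of 8 basement membrane and 9 of 20 other collagen genes, and both genes that were called lower, *Col13a1* and *Col23a1*, encode transmembrane collagens. The values of the groups did not overlap for 13 collagen genes that were higher in αKG, against 13.7% of all genes, and for 2 that were lower, against 14.6%. The 13 genes are 34.2% of the collagen genes. Without any 1 of the other 5 libraries, limma called 0 collagen genes at the adjusted threshold. At that threshold these fits called 0% to 0.758% of all genes, and the median log2 difference of the collagen genes in them was 0.36 to 0.75.

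The fitted log2 difference, αKG minus DMSO, was above 0 for 32 of 38 collagen genes, with a median of 0.60, whereas the median over all genes was 0.04. These medians were 0.91 and 0.06 without αKG replicate 3. By class, with all 6 libraries, the median log2 difference was 0.91 for fibrillar, 0.21 for basement membrane and 0.36 for other collagens, and it was 1.48, 0.32 and 0.79 without αKG replicate 3. Of the 38 collagen genes, 29 lay above the whole DMSO range in αKG replicate 1 and 30 in αKG replicate 2. In αKG replicate 3, 14 lay above it, 18 within and 6 below. Among all genes, 40.3%, 39.1% and 27.3% lay above the DMSO range in the respective αKG libraries. In αKG replicate 3, 45.7% of all genes lay within it and 27% below, against 47.4% and 15.8% of the collagen genes.

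**Figure D2:**
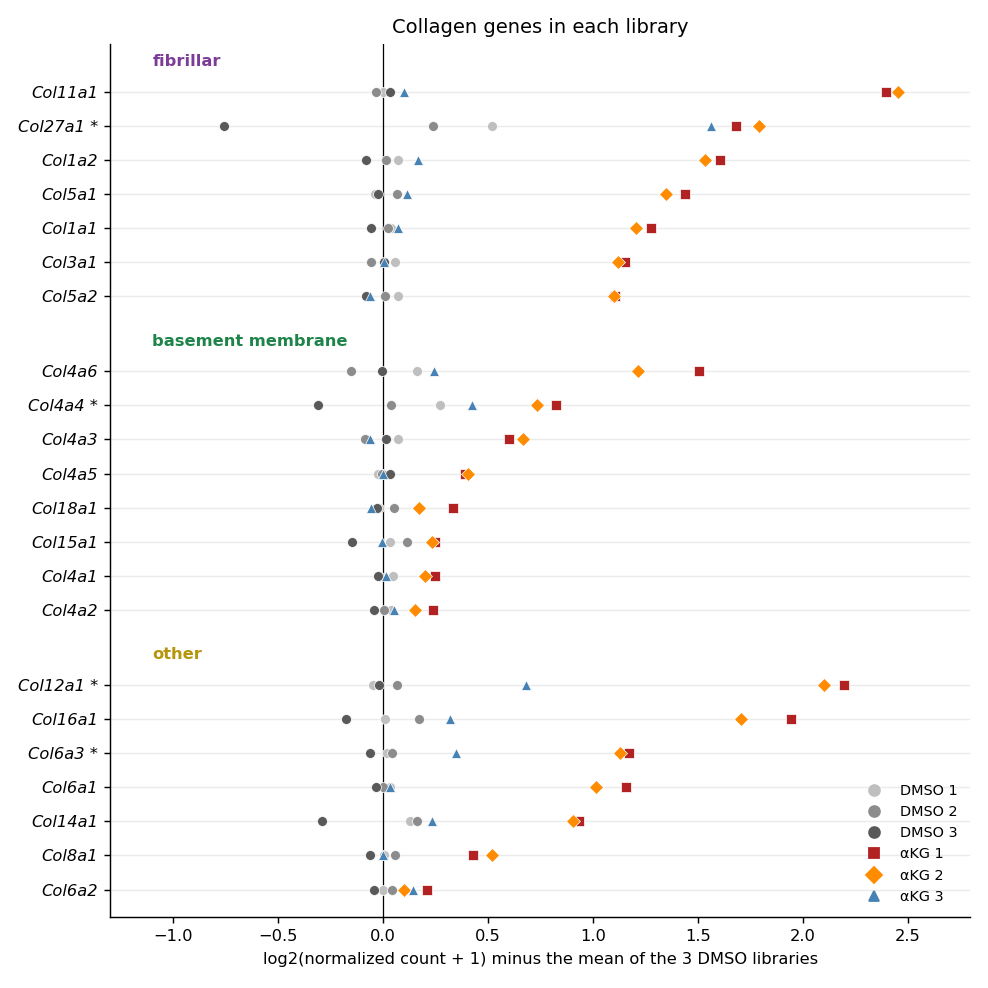
Difference of log2(normalized count + 1) from the mean of the 3 DMSO libraries (horizontal axis) for each collagen gene with a mean of at least 100 and for *Col27a1*, by class, with 1 point for each library; an asterisk marks an adjusted p under 0.05 in limma over all 6 libraries. αKG replicates 1 and 2 lie to the right of the DMSO points for each gene shown, and αKG replicate 3 lies among or close to them except for genes such as *Col27a1* and *Col12a1*.

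In control CMs, basement membrane collagens had the highest levels. On the scale of normalized counts per kilobase of exon, *Col4a2* led with 404 ± 11.2 (SD, n = 3 for each of these levels), followed by *Col4a1* with 353 ± 9.65 and *Col4a5* with 189 ± 3.85. *Col1a1*, with 151 ± 5.44, was the highest fibrillar gene, ahead of *Col5a1* with 94.2 ± 3.74. *Col5a2* (81.2 ± 4.30) and *Col6a1* (78.1 ± 1.83) differed by less than the larger of their SDs, as did *Col6a2* (58.6 ± 1.68) and *Col8a1* (58.0 ± 2.36). *Col3a1*, at 66.6 ± 2.65, lay between these pairs. The order changed in αKG replicates 1 and 2, where *Col1a1* reached 366 and 349 and *Col5a1* 255 and 240 normalized counts per kilobase, each above or close to the 248 and 251 of *Col4a5*. In αKG replicate 3, *Col1a1* stood at 159 and *Col5a1* at 102, below the 189 of *Col4a5*. These levels depend on the annotated exon length, which counts exons of all isoforms of a gene together.

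**Figure D3:**
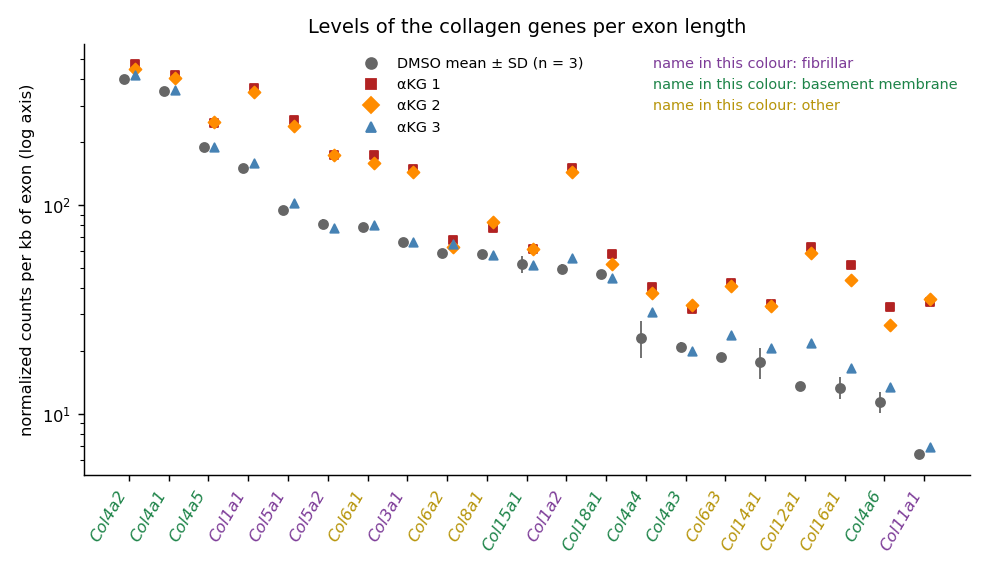
Normalized counts per kilobase of exon (vertical log axis) of the 21 collagen genes with a mean of at least 100, ordered by the DMSO mean, shown with its SD (n = 3), beside the values of the 3 αKG libraries; name colours give the class. *Col4a2* and *Col4a1* lead in DMSO at 404 and 353, and *Col11a1* is the lowest of the genes shown, at 6.43.

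Among fibrillar collagens, the genes of types I and III, which make up the bulk of fibrils in the heart, all showed the same split between the αKG libraries. *Col1a1*, the α1 chain of type I collagen (ENSMUSG00000001506, GRCm38 chromosome 11, 94936224 to 94953042), had 1018, 1006 and 951 normalized counts under DMSO, in the order of the replicates here and throughout, and 2402, 2288 and 1042 under αKG. The groups did not overlap, although αKG replicate 3 exceeded the highest DMSO library by little. The log2 difference of *Col1a1* was 0.85 ± 0.26 (SE, limma adjusted p = 0.0839), and 1.24 ± 0.04 without αKG replicate 3 (limma adjusted p = 0.000106). Its partner chain *Col1a2* had 645, 620 and 581 normalized counts under DMSO and 1872, 1780 and 689 under αKG. Again every αKG library was above every DMSO library, and αKG replicate 3 was much nearer to DMSO than to its own group. The fitted difference of *Col1a2* was 1.10 ± 0.31 (limma adjusted p = 0.0715), and 1.57 ± 0.06 without αKG replicate 3 (limma adjusted p = 0.000106). *Col3a1*, the homotrimer chain of type III collagen, had 679, 627 and 656 normalized counts under DMSO and 1457, 1421 and 655 under αKG. The first 2 αKG libraries were above the DMSO range and the other was inside it. The difference on the log2 scale was 0.76 ± 0.25 (limma adjusted p = 0.0987), and 1.14 ± 0.05 without αKG replicate 3 (limma adjusted p = 0.000157).

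Promoters of genes of types I, III and V, which were all higher in αKG replicates 1 and 2, are shown to let their sequences be compared. The RefSeq windows (GRCm38.p6, 250 bases before to 50 after the annotated start, on the coding strand) are those of *Col1a2* (chr6:4505368-4505667, plus strand), *Col3a1* (chr1:45311288-45311587, plus strand) and *Col5a1* (chr2:27886175-27886474, plus strand). The deposited table lets *Col1a2* begin further upstream, at 4504814. Capitals mark matches to CCAAT, the CCAAT box, and to TATAAA, which is a TATA box sequence, on either strand.
Col1a2: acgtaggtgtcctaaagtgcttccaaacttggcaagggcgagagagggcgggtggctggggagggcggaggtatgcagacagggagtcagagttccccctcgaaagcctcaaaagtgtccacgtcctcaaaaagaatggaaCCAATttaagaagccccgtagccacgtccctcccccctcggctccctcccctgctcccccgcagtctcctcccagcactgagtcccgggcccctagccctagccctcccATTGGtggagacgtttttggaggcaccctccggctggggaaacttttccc
Col3a1: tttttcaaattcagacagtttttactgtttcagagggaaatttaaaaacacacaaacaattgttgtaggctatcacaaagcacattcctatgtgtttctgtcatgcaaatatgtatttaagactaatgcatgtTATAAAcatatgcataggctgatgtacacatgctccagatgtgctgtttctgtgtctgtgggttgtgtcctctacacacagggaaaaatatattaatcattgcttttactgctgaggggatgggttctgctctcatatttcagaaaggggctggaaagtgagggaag
Col5a1: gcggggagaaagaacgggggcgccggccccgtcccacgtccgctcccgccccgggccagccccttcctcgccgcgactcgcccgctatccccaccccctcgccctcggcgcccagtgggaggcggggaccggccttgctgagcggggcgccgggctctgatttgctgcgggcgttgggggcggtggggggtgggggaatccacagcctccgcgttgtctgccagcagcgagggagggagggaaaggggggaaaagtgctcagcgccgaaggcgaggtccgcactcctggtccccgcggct

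The *Col1a2* window held a CCAAT match on each strand and 13 CG dinucleotides, the *Col3a1* window held a TATAAA match and 0 CG dinucleotides, and the *Col5a1* window held neither motif and 34 CG dinucleotides. For these 3 genes the mean of αKG replicates 1 and 2 was 2.97, 2.20 and 2.63 times the DMSO mean, respectively. A link between these features and the levels was not tested. Windows were matched for 29 of the 38 collagen genes, giving 32 windows of 300 bases, since some genes have more than 1 annotated start. Searched on both strands, CCAAT occurred in 34.4% of these windows against 37.4% of all 32851 windows, and TATAAA in 12.5% against 13.6%. GGGCGG, a core sequence of GC boxes, occurred in 62.5% of the collagen windows against 35.7% of all windows. The median number of CG dinucleotides was 12.5 in collagen windows and 7 in all windows.

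Types V and XI collagen nucleate fibrils and limit their width. *Col5a1*, the α1 chain of type V collagen, had 777, 836 and 786 normalized counts under DMSO and 2168, 2034 and 865 under αKG. All αKG libraries exceeded the DMSO libraries, αKG replicate 3 by a small margin. For *Col5a1* the log2 difference was 0.97 ± 0.28 (limma adjusted p = 0.0776), and 1.39 ± 0.05 without αKG replicate 3 (limma adjusted p = 0.000106). *Col5a2*, the α2 chain, had 817, 784 and 735 normalized counts under DMSO and 1674, 1667 and 745 under αKG, with αKG replicate 3 inside the DMSO range. The log2 difference of *Col5a2* was 0.71 ± 0.26 (limma adjusted p = 0.118), and 1.10 ± 0.05 without αKG replicate 3 (limma adjusted p = 0.000208). *Col11a1*, the α1 chain of type XI collagen, is best known from cartilage and can join type V chains in other tissues. It had 82, 80 and 84 normalized counts under DMSO and 436, 454 and 88 under αKG. The mean of αKG replicates 1 and 2 was 5.43 times the DMSO mean, and αKG replicate 3 was 1.07 times that mean. The log2 difference was 1.65 ± 0.51 (limma adjusted p = 0.0861), and 2.43 ± 0.07 without αKG replicate 3 (limma adjusted p = 0.000106). Markers of cartilage and valve cells reached 1.43, 1.45 and 0.92 times their DMSO mean in summed level in αKG replicates 1 to 3, with *Matn1*, *Chad*, *Snorc* and *Tnmd* not listed, and their part in the *Col11a1* result was not tested.

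*Col27a1*, a fibrillar collagen gene with a shorter helix and a low level in these cultures, was the only fibrillar gene called with all 6 libraries. It had 16, 13 and 6 normalized counts under DMSO and 37, 40 and 34 under αKG. Unlike the more abundant fibrillar genes, *Col27a1* had similar values in the 3 αKG libraries, with αKG replicate 3 at 2.91 times the DMSO mean. Its log2 difference was 1.68 ± 0.35 (limma adjusted p = 0.0408), and 1.74 ± 0.40 without αKG replicate 3 (limma adjusted p = 0.0176). At most 40 normalized counts stand behind each of these values. The remaining fibrillar genes were also low: *Col5a3* had 9 to 14 normalized counts under DMSO and 46, 37 and 13 under αKG, *Col11a2* ranged from 6 to 16 and *Col2a1*, the cartilage collagen, from 0 to 12 over all libraries. Of these, *Col5a3* was called only without αKG replicate 3 (log2 difference 1.80 ± 0.26, limma adjusted p = 0.00379), and *Col11a2* and *Col2a1* passed in neither fit.

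Basement membrane collagens differed by smaller factors than most fibrillar genes. *Col4a1* and *Col4a2*, which encode the chains of the ubiquitous type IV network, were the most abundant collagen transcripts. *Col4a1* had 2717, 2597 and 2588 normalized counts under DMSO and 3122, 3025 and 2659 under αKG, and *Col4a2* had 2744, 2682 and 2596 under DMSO and 3155, 2972 and 2771 under αKG. For *Col4a1* αKG replicate 3 lay within the DMSO range, and for *Col4a2* it lay just above. The log2 difference was 0.15 ± 0.07 for *Col4a1* (limma adjusted p = 0.165) and 0.15 ± 0.06 for *Col4a2* (limma adjusted p = 0.144). Leaving out αKG replicate 3 gave 0.22 ± 0.04 and 0.20 ± 0.04 (limma adjusted p = 0.00506 and 0.0119). Both genes start within 21 bases of each other on opposite strands of chromosome 8, and their listed spans share 22 exon bases, so that reads in this stretch cannot be assigned without strand.

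Genes for type IV chains lie head to head in pairs, and the regions between their starts are shown because both genes of a pair begin there. The *Col4a2* window (chr8:11312555-11312854, plus strand) has in capitals the 78 bases that it shares with the *Col4a1* window. The *Col4a4* window (chr1:82586800-82587099, minus strand) has in capitals the 71 bases between the listed ends of *Col4a3* and *Col4a4*. Both are RefSeq sequences of GRCm38.p6.
Col4a2: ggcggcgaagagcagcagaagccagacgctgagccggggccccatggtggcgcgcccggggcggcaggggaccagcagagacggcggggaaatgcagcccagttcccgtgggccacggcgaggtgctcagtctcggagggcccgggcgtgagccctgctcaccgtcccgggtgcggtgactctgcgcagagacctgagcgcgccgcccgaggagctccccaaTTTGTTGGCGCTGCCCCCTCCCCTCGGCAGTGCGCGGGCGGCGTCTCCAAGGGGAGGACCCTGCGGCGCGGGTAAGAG
Col4a4: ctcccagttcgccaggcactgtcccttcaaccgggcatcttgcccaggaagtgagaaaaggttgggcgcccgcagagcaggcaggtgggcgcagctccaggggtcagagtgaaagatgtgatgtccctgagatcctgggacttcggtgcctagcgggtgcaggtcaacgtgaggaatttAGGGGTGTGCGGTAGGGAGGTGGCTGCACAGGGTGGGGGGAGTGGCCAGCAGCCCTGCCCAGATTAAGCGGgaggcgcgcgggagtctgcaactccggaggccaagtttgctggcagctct

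The chains of the other networks of type IV collagen, which are restricted to fewer tissues, differed more. *Col4a4* was the only basement membrane gene called with all 6 libraries. It had 292, 248 and 195 normalized counts under DMSO and 429, 403 and 325 under αKG, so that every αKG library exceeded every DMSO library. Its log2 difference was 0.66 ± 0.16 (limma adjusted p = 0.0494), and 0.78 ± 0.16 without αKG replicate 3 (limma adjusted p = 0.0119). Its neighbour *Col4a3*, which starts 72 bases away, had 219, 196 and 210 normalized counts under DMSO and 316, 331 and 199 under αKG. Here αKG replicate 3 was inside the DMSO range. The log2 difference of *Col4a3* was 0.40 ± 0.18 (limma adjusted p = 0.172), and 0.63 ± 0.07 without αKG replicate 3 (limma adjusted p = 0.00181). *Col4a6* had 101, 81 and 90 normalized counts under DMSO and 258, 211 and 107 under αKG, with no overlap between the groups. The fit gave *Col4a6* a log2 difference of 0.99 ± 0.28 (limma adjusted p = 0.0714), and 1.36 ± 0.13 without αKG replicate 3 (limma adjusted p = 0.00120). *Col4a5*, the neighbour of *Col4a6* on the X chromosome with a start 1309 bases away, had 1248, 1266 and 1299 normalized counts under DMSO and 1666, 1685 and 1271 under αKG. The first 2 αKG libraries were above all DMSO libraries and αKG replicate 3 was among them. The log2 difference of *Col4a5* was 0.27 ± 0.10 (limma adjusted p = 0.129), and 0.40 ± 0.03 without αKG replicate 3 (limma adjusted p = 0.000916).

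Types XV and XVIII collagen, which carry glycosaminoglycan chains and release antiangiogenic fragments, are further basement membrane components. *Col15a1* had 338, 358 and 298 normalized counts under DMSO and 392, 389 and 329 under αKG, with a log2 difference of 0.16 ± 0.11 (limma adjusted p = 0.344) and of 0.24 ± 0.08 without αKG replicate 3 (limma adjusted p = 0.0660). *Col18a1* had 322, 338 and 320 normalized counts under DMSO and 411, 368 and 314 under αKG. αKG replicate 3 was below each DMSO library. The log2 difference of *Col18a1* was 0.15 ± 0.11 (limma adjusted p = 0.378), and 0.25 ± 0.07 without αKG replicate 3 (limma adjusted p = 0.0289).

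Among the FACIT collagens, *Col12a1*, which encodes a long fibril-associated chain, gave the smallest p of the family with all 6 libraries. *Col12a1* (ENSMUSG00000032332, chromosome 9, 79598991 to 79718831) had 201, 217 and 205 normalized counts under DMSO and 954, 895 and 333 under αKG. Each αKG library was clearly above the DMSO libraries, at 4.45 times the DMSO mean for the mean of αKG replicates 1 and 2 and at 1.60 times for αKG replicate 3. Its log2 difference was 1.66 ± 0.33 (limma adjusted p = 0.0350), and 2.15 ± 0.06 without αKG replicate 3 (limma adjusted p = 0.000106). *Col16a1* had 90, 101 and 79 normalized counts under DMSO and 347, 294 and 112 under αKG. The groups did not overlap, and the log2 difference of 1.32 ± 0.35 did not pass the threshold (limma adjusted p = 0.0621), but that of 1.82 ± 0.13 without αKG replicate 3 did (limma adjusted p = 0.000540). *Col14a1*, which binds the fibril surface through decorin, had 134, 137 and 100 normalized counts under DMSO and 235, 230 and 144 under αKG. Its αKG libraries were all above DMSO, αKG replicate 3 by a small margin, with a log2 difference of 0.69 ± 0.20 (limma adjusted p = 0.0790) and of 0.92 ± 0.15 without αKG replicate 3 (limma adjusted p = 0.00513). The other FACIT genes, *Col9a1*, *Col9a2*, *Col9a3*, *Col19a1*, *Col20a1* and *Col22a1*, had at most 16 normalized counts in any library and none was called in either fit.

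Type VI collagen is assembled from α1, α2 and a longer α3 chain, and the ratios of its 3 main genes to DMSO were unequal. *Col6a3*, the α3 chain, had 227, 231 and 215 normalized counts under DMSO and 507, 492 and 286 under αKG. It was above the DMSO range in the 3 αKG libraries, with a log2 difference of 0.88 ± 0.19 (limma adjusted p = 0.0424) and of 1.15 ± 0.06 without αKG replicate 3 (limma adjusted p = 0.000274). *Col6a1* had 350, 342 and 334 normalized counts under DMSO and 763, 693 and 350 under αKG, where αKG replicate 3 equalled the highest DMSO library. The log2 difference was 0.74 ± 0.24 (limma adjusted p = 0.0949), and 1.09 ± 0.06 without αKG replicate 3 (limma adjusted p = 0.000307). *Col6a2* had 488, 502 and 474 normalized counts under DMSO and 564, 522 and 539 under αKG. This gene was higher in each αKG library but only slightly, with a log2 difference of 0.15 ± 0.07 (limma adjusted p = 0.208) and of 0.15 ± 0.06 without αKG replicate 3 (limma adjusted p = 0.0725). *Col6a6*, a chain that can take the place of α3, had 18 to 32 normalized counts under DMSO and 41, 56 and 32 under αKG and was called only without αKG replicate 3 (limma adjusted p = 0.0334).

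Of the short-chain network collagens, *Col8a1*, which is made by vascular and mesenchymal cells, had 455, 472 and 435 normalized counts under DMSO and 611, 650 and 453 under αKG. αKG replicate 3 lay within the DMSO range, and the log2 difference was 0.31 ± 0.13 (limma adjusted p = 0.143), or 0.47 ± 0.06 without αKG replicate 3 (limma adjusted p = 0.00214). Lower values in αKG were seen for 2 transmembrane collagens. *Col13a1*, a transmembrane collagen of cell-matrix junctions, had 37, 26 and 19 normalized counts under DMSO and 9, 9 and 18 under αKG, and *Col23a1* had 67, 67 and 60 under DMSO and 45, 31 and 39 under αKG. For both genes every αKG library was below every DMSO library, including αKG replicate 3. Their log2 differences were -1.14 ± 0.37 and -0.75 ± 0.20 (limma adjusted p = 0.0949 and 0.0621). Both passed without αKG replicate 3, at -1.45 ± 0.31 and -0.77 ± 0.19 (limma adjusted p = 0.0143 and 0.0204). *Col7a1*, of anchoring fibrils, and *Col8a2* were called higher only without αKG replicate 3 (limma adjusted p = 0.0460 and 0.0401), at no more than 39 normalized counts in any library. *Col17a1* and *Col26a1* had at most 6 normalized counts in any library and passed in neither fit. In all, 10 collagen genes had a mean under 10 normalized counts, and differences of such genes rest on few reads.

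Chains that can share a heterotrimer were paired, and the ratio of partner chains was computed in each library from normalized counts per kilobase. No fixed proportion was assumed for a pair. In all, 7 ratios were compared by a two-sided exact permutation test of 3 against 3 libraries, which cannot give a p below 0.1. *Col1a1* over *Col1a2* was 2.99, 3.07 and 3.10 under DMSO and 2.43, 2.43 and 2.86 in αKG. The groups did not overlap (exact permutation p = 0.1, adjusted over 7 ratios p = 0.233). *Col5a1* over *Col5a2* went in the other direction without overlap, from 1.07, 1.20 and 1.21 to 1.46, 1.38 and 1.31 (exact permutation p = 0.1, adjusted p = 0.233). *Col4a5* over *Col4a6* was 14.7, 18.5 and 17.1 under DMSO and 7.66, 9.48 and 14.1 in αKG, again without overlap (exact permutation p = 0.1, adjusted p = 0.233). In contrast, the ratio of *Col4a1* to *Col4a2* stayed between 0.851 and 0.903 in the 6 libraries (exact permutation p = 1). *Col4a3* over *Col4a4* was 0.799, 0.841 and 1.15 under DMSO and 0.784, 0.874 and 0.652 in αKG, with overlapping groups (exact permutation p = 0.4). *Col6a1* over *Col6a2* was between 1.30 and 1.36 under DMSO and 2.57 and 2.52 in αKG replicates 1 and 2, but 1.23 in αKG replicate 3, so that the groups overlapped (exact permutation p = 0.4). *Col6a1* over *Col6a3* was 4.21, 4.04 and 4.24 under DMSO and 4.11, 3.85 and 3.34 in αKG (exact permutation p = 0.2). No ratio passed a threshold of 0.05, which this design could not reach.

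**Figure D4:**
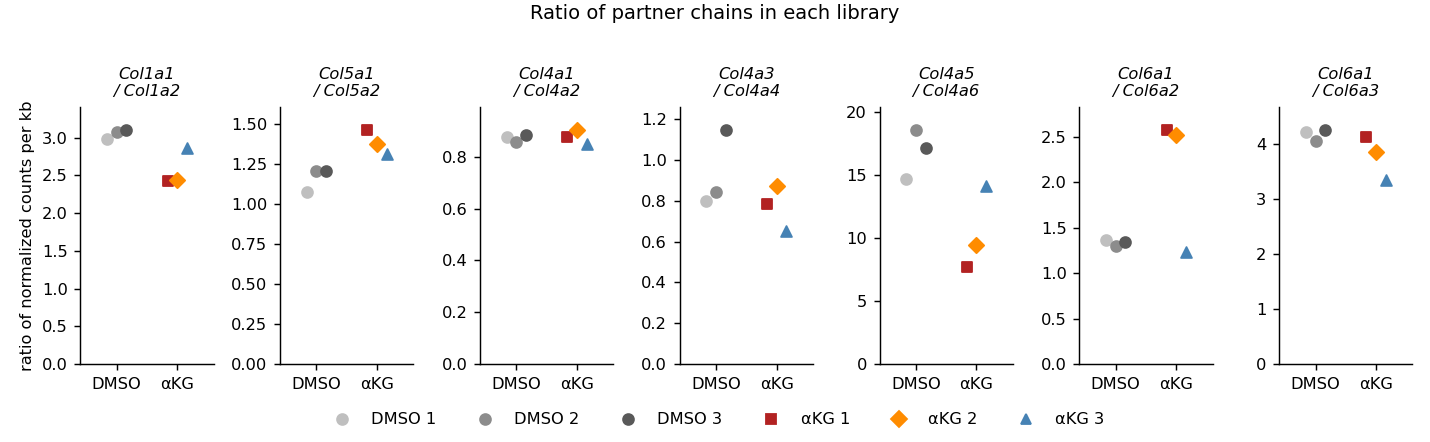
Ratio of the normalized counts per kilobase of 2 partner chains (vertical axes from 0, a separate scale in each panel) in the 3 DMSO and 3 αKG libraries, for 7 pairs. The ratio of *Col4a1* to *Col4a2* stays between 0.851 and 0.903, whereas that of *Col4a5* to *Col4a6* is lower in the αKG libraries.

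Genes that act on collagen were counted in 7 lists, of which 119 of 130 genes were listed in the table. With all 6 libraries 14 of them were called higher and 0 lower, where 2.83% and 0.952% of all genes were called, and 51 were higher and 8 lower at an unadjusted p under 0.05, against 15.7% and 12.4% of all genes. Leaving out αKG replicate 3 gave 76 called higher and 8 lower, against 19.3% and 17.9% of all genes. Without any one of the other 5 libraries 0 to 2 were called, against 0% to 0.758% of all genes. The median log2 difference over the 119 genes was 0.34, beside 0.04 over all genes.

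The enzymes that use αKG to hydroxylate collagen belong to the list of hydroxylation, glycosylation and folding, in which 2 of 18 genes were called higher and 0 lower. *P3h2*, prolyl 3-hydroxylase 2, had 82, 86 and 61 normalized counts under DMSO and 318, 321 and 138 under αKG (log2 difference 1.67 ± 0.30, limma adjusted p = 0.0279). *P4ha3*, a catalytic subunit of prolyl 4-hydroxylase, had 81, 79 and 75 under DMSO and 161, 148 and 110 under αKG (0.81 ± 0.16, limma adjusted p = 0.0365). Both lay above the DMSO range in each αKG library. The most abundant members, the collagen chaperone *Serpinh1* and the prolyl 4-hydroxylase β subunit *P4hb*, had log2 differences of 0.02 and 0.04 (limma adjusted p = 0.864 and 0.720). Without αKG replicate 3, 11 of the 18 genes were called higher and 0 lower, and the median log2 difference of the list with all libraries was 0.16.

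Of the genes for secretion, propeptide cleavage and cross-linking, 1 of 19 was called higher. This was *Tgm2*, transglutaminase 2, with 734, 750 and 748 normalized counts under DMSO and 1361, 1362 and 1155 under αKG (0.79 ± 0.08, limma adjusted p = 0.00281). The value of *Tgm2* in αKG replicate 3 was thus near that of the other αKG libraries. The highest-level members *Pxdn*, the peroxidase that cross-links type IV collagen, and *Mia3*, a collagen export receptor, had log2 differences of -0.12 and 0.05 (limma adjusted p = 0.244 and 0.620). In the fit without αKG replicate 3, 12 of the 19 were called higher.

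Among 18 fibril regulators and collagen-binding matrix proteins, *Thbs2*, thrombospondin 2, and *Matn2*, matrilin 2, were called higher. *Thbs2* had 364, 342 and 331 normalized counts under DMSO and 832, 768 and 477 under αKG (0.96 ± 0.18, limma adjusted p = 0.0294), and *Matn2* had 41, 32 and 29 under DMSO and 87, 72 and 52 under αKG (1.01 ± 0.24, limma adjusted p = 0.0495). Neither gene overlapped between groups. *Fn1*, fibronectin, and *Thbs1* were the most abundant members, with log2 differences of 0.33 and 0.27 (limma adjusted p = 0.220 and 0.217). With αKG replicate 3 left out, 14 of the 18 were called higher.

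Basement membrane partners held 4 called genes of 16, all higher. *Lama4*, the laminin α4 chain, had 945, 947 and 808 normalized counts under DMSO and 1514, 1415 and 1283 under αKG (0.64 ± 0.09, limma adjusted p = 0.00939). It was above the DMSO range in all αKG libraries. The same was true of *Lama2*, laminin α2, which had 1186, 1110 and 1078 under DMSO and 1764, 1677 and 1311 under αKG (0.48 ± 0.10, limma adjusted p = 0.0422), and of the most abundant member, *Hspg2*, which encodes perlecan and had 2574, 2500 and 2420 under DMSO and 4766, 4058 and 2955 under αKG (0.63 ± 0.14, limma adjusted p = 0.0445). *Lamc1*, the next most abundant, had a log2 difference of 0.26 (limma adjusted p = 0.121). Without αKG replicate 3, 14 of the 16 were called higher and 1 lower. The lower gene was *Lama3*, laminin α3, with 193, 158 and 160 normalized counts under DMSO and 46, 40 and 123 under αKG. Its groups did not overlap. The log2 difference of *Lama3* was -1.46 ± 0.35 (limma adjusted p = 0.0512), and -1.96 ± 0.13 without αKG replicate 3 (limma adjusted p = 0.000466).

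One of 12 listed collagen receptors and uptake genes was called, *Itga1*, the integrin α1 subunit that binds type IV collagen. *Itga1* had 522, 612 and 550 normalized counts under DMSO and 986, 981 and 758 under αKG (0.69 ± 0.11, limma adjusted p = 0.0204). Its partner *Itgb1* and the anthrax toxin receptor *Antxr2*, the most abundant members, had log2 differences of 0.15 and -0.22 (limma adjusted p = 0.178 and 0.0816). For degradation and its inhibitors, 1 of 14 was called higher, *Mmp16*, a membrane-bound matrix metalloproteinase, with 28, 25 and 26 normalized counts under DMSO and 69, 86 and 43 under αKG (1.24 ± 0.26, limma adjusted p = 0.0415). The inhibitors *Timp3* and *Timp2* had log2 differences of 0.54 and 0.09 (limma adjusted p = 0.0862 and 0.410). Of 22 genes of TGF-β and other regulators of matrix, 3 were called higher. *Tgfb3* had 282, 310 and 312 normalized counts under DMSO and 469, 446 and 367 under αKG (0.50 ± 0.11, limma adjusted p = 0.0424). *Ccn2*, connective tissue growth factor, had 675, 706 and 696 under DMSO and 1150, 1184 and 805 under αKG (0.57 ± 0.13, limma adjusted p = 0.0454). *Ltbp3*, which binds latent TGF-β, had 459, 452 and 487 under DMSO and 845, 671 and 567 under αKG (0.56 ± 0.13, limma adjusted p = 0.0468). All 3 lay above the DMSO range in each αKG library, whereas *Ltbp1* had a log2 difference of 0.01 (limma adjusted p = 0.915). Without αKG replicate 3, the receptor, degradation and regulator lists had 8, 7 and 10 genes called higher and 2, 1 and 4 called lower.

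Because other cardiac cells make collagen, markers of 8 cell types, none of them a collagen gene, were summed in each library. Summed epicardial markers were above DMSO in αKG replicates 1 and 2 but not in αKG replicate 3. The sums were 492 to 516 normalized counts in the DMSO libraries and 1318, 1269 and 464 in αKG replicates 1 to 3. These were 2.60, 2.50 and 0.92 times the DMSO mean. *Tbx18* held most of the DMSO sum, with 306, 332 and 329 normalized counts under DMSO and 408, 405 and 351 under αKG. Its log2 difference of 0.26 was the smallest of the 10 genes, so the ratios of the sum do not stand for the other markers. The median log2 difference of the 10 genes was 1.26, and 2.21 without αKG replicate 3. In αKG replicate 3, 7 of the 10 genes lay below the DMSO range and 2 above. All 10 epicardial genes were listed, limma called 0 with all 6 libraries, where 2 had an unadjusted p under 0.05, and 10 were called higher without αKG replicate 3. Fibroblast markers, all 14 listed, summed to 2147 to 2257 under DMSO and to 3322, 3294 and 2005 under αKG, or 1.51, 1.50 and 0.91 times the DMSO mean. Of the fibroblast genes limma called 0 with all 6 libraries, where 6 had an unadjusted p under 0.05, and 9 were called higher without αKG replicate 3. The fibroblast markers *Dcn*, *Lum*, *Dpt*, *Postn*, *Ddr2*, *Tcf21* and *Fap* also stood in the lists of genes that act on collagen. Both marker sums were thus above DMSO in αKG replicates 1 and 2 and below each DMSO library in αKG replicate 3, whereas the summed fibrillar collagens in αKG replicate 3 were 1.05 times their DMSO mean. Their part in the collagen result was not tested.

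The remaining markers were distributed differently. Endothelial markers, all 14 listed, summed to 0.676, 0.616 and 0.671 times the DMSO mean, including αKG replicate 3, and 10 of them were called lower and 0 higher with all 6 libraries. Without αKG replicate 3, 10 were called lower and 2 higher, *Flt1* and *Tek* (limma adjusted p = 0.000816 and 0.0109). Of all genes, 2.83% were called higher and 0.952% lower with all 6 libraries, and 19.3% and 17.9% without αKG replicate 3. Cardiomyocyte markers reached 1.41, 1.46 and 1.04 times the DMSO mean, a sum in which titin, *Ttn*, held most of the counts, and the median log2 difference of the 12 genes was 0.07, with 5 called higher and 3 lower without αKG replicate 3. Mural markers, 9 of 10 listed with *Higd1b* not listed, reached 1.19, 1.07 and 1.06 times, with 2 genes called higher, and 4 higher and 1 lower without αKG replicate 3. *Abcc9* was the largest part of the mural sum in each library and *Cspg4* the next largest. Their log2 differences were -0.28 and 0.66 (limma adjusted p = 0.126 and 0.0362). The ratios of the mural sum thus rest mainly on *Abcc9* and *Cspg4*, whereas *Rgs5*, *Kcnj8* and *Myh11* had at most 13 normalized counts in any library. Schwann and neural crest markers, 6 of 8 listed, reached 1.34, 1.20 and 1.25 times, with 2 genes called higher only without αKG replicate 3. Macrophage markers summed to 41 normalized counts or fewer in every library, and *Adgre1*, *C1qa*, *C1qb*, *C1qc*, *Ptprc* and *Fcgr1* were not listed. Whether any of these cell types contributed to the collagen values was not tested.

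**Figure D5:**
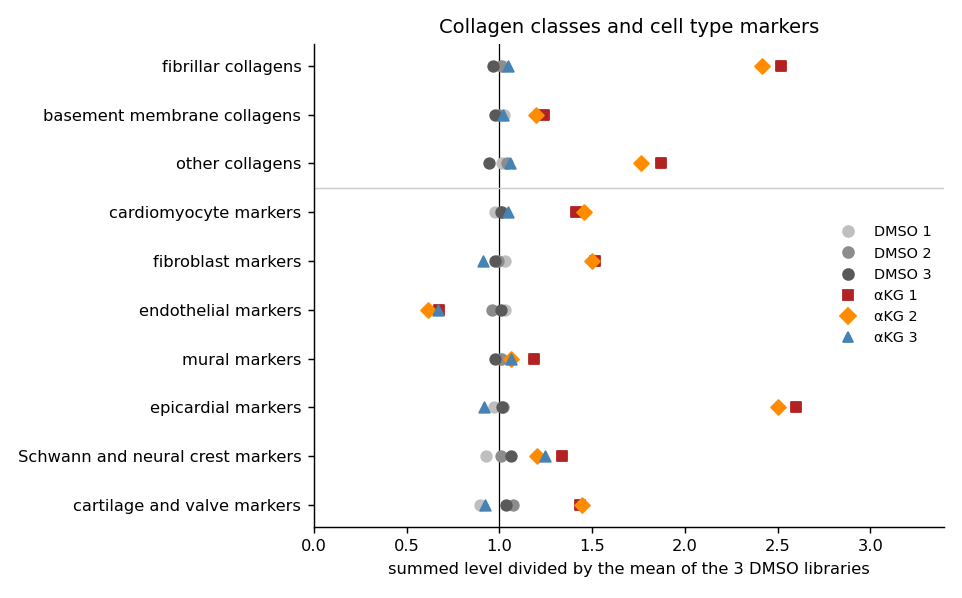
Summed level in each library divided by the mean of the 3 DMSO libraries (horizontal axis) for the 3 collagen classes, per kilobase of exon, and for 7 lists of cell type markers, in normalized counts; macrophage markers were too low to be shown. Fibrillar collagens lie at 2.52, 2.42 and 1.05 in αKG replicates 1 to 3 and epicardial markers at 2.60, 2.50 and 0.92. Endothelial markers lie below 1 in all αKG libraries. *Tbx18* holds most of the epicardial sum in DMSO and in αKG replicate 3.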

How the data were processed

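Total RNA was measured in 3 DMSO-treated and 3 αKG-treated libraries, with groups taken from the labels. Per the study's methods and the submitters' processing notes, reads were trimmed by the authors (Trimmomatic 0.39), mapped to mm10 (GRCm38.p5) by STAR 2.7.10a and counted per gene by featureCounts 2.0.3, where overlap with an exon sufficed and ambiguous or multiply mapped reads were discarded. For normalization the authors used DESeq2 1.30.1. Use of strand in counting is not given in the sources used here. The deposited values are treated as a score, because the authors had scaled counts by size factors and rounded the outcome to whole numbers. Genes that did not reach 2 in any library were not listed.

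Differences were tested with limma 3.58.1 in R 4.3.3 on log2(value + 1), with a variance trend, treatment as the only term, no filter, and Benjamini-Hochberg adjustment over 20066 genes (threshold 0.05). Differences on this scale understate those of low genes. The fit was tested on simulated data in which all αKG libraries shared the same differences, so a library like αKG replicate 3 was not covered. The depth was estimated as the column total over the value of 1 read, found from the spacing of low values (0.926 to 1.12), and covers counting error only. Exon lengths and GC content came from GENCODE M21 (99.0% of genes at identical positions), and promoters from RefSeq, GRCm38.p6. Chain ratios were tested by exact permutation in Python 3.11.15. Members and lists were chosen with earlier results of these data known. Genes named with values per library were members with a mean of at least 100 or a call, and per list up to 3 called genes with the smallest p and the 2 with the highest mean. Some list genes that the rule names are not reported here. *Col13a1*, *Col23a1*, *Col5a3* and other low members given with values were chosen after these were seen, as were *Lama3* and the single marker genes given with values. The alternatives were other pseudocounts, filters, scalings and variance models, a GC and length correction, a replicate block, and each library left out. The αKG concentration is that of the labels, from which the methods of the study differ.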

Additional observations from a re-analysis of the deposited data

How the results depend on the processing

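The median log2 difference of the collagen genes stayed positive under every alternative, from 0.32 (pseudocount 10) to 0.91 (without αKG replicate 3). The number of collagen genes called was less stable. With all 6 libraries it was 4, all higher, and 14 genes that act on collagen were called, with 3.78% of all genes. The fit without a mean-variance trend called 0 and 0 (0.135% of all genes), a pseudocount of 0.1 called 0 and 7 (1.72%), limma-voom on estimated reads 1 (*Col27a1*) and 4 (2.68%), and DMSO replicates 2 and 3 averaged 0 and 0 (0.0498%). Leaving out 1 library gave 0 to 26 collagen genes, 0 to 24 of them higher and 0 to 2 lower, and 0 to 84 genes that act on collagen, with 0% to 37.2% of all genes. Only the fit without αKG replicate 3 exceeded 2 in either count. At an unadjusted p under 0.05, 24 collagen genes (22 higher, 2 lower) and 59 genes that act on collagen passed, with 28.1% of all genes. *Col12a1*, *Col27a1*, *Col6a3* and *Col4a4* each lost the call under 10 of 17 alternatives.

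Libraries with the same replicate number correlated at -0.07, 0.14 and 0.00 in their deviations from the group means, so no pairing by number was seen. As αKG replicate 3 stood apart from its group, these values cannot exclude pairing. With the replicate block, 0 collagen genes and 3 genes that act on collagen were called, with 0.229% of all genes. The replicate block with GC and length correction called 11 and 27, with 7.84% of all genes. The correction for GC content and length alone called 5 collagen genes, all higher, with 6.18% of all genes. It turned the split of calls over all genes from 568 higher and 191 lower into 548 and 692.

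Of 626 values of single genes under alternatives, 8 reversed, all of genes with a mean under 25 and none past the threshold. Quantile normalization gave -0.10 for *Col11a2*, -0.019 for *Col7a1* and -0.071 for *Col9a1*. Leaving out 1 library gave -0.0042 to 0.57 for *Col11a2*, -0.10 to 0.90 for *Col7a1*, -0.17 to 1.00 for *Col9a2*, -0.034 to 1.82 for *Col2a1* and -1.15 to 0.082 for *Col20a1*. Depth limits the 10 genes with a mean under 10, where 1 read is worth about 1 normalized count. A minimum mean of 10 removed these genes and left the same 4 calls among 28 collagen genes. Of the 13409 genes tested in that fit 6.5% were called, against 3.78% of all genes in the main fit.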
